A study of Mus musculus with 7 samples.

Results

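The cells described are those that met a transcript rule for dendritic cells in 7 single-cell libraries of mouse NSCG brain tumours. Barcodes of 1000 or more UMIs (counted RNA molecules), with 500 or more genes and no more than 15% of UMIs from mitochondrial genes, were kept. A kept cell was a member with at least 1 UMI of Flt3 and Zbtb46 together, at least 2 of Xcr1, Clec9a, Cd209a, Ccr7 and Fscn1 together, at least 3 of H2-Ab1, 0 of Cd3d, Cd3e, Cd3g and Cd79a, and fewer than 5 of C1qa, C1qb and C1qc together. The rule found 531 members among 51795 kept cells, called gated cells here. Members were thus selected on the measured counts of these genes, whose values are given as a description.

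NSCG-mCherry is a glioma line with EGFRvIII and without Arf/Ink4a, grown in the brains of wild-type C57BL/6 mice aged 7 to 10 weeks. Whole tumours were dissociated at about day 14, and each library pooled at least 2 mice, so that a library is 1 replicate and the spread between mice was not measured. The untreated library (UT, n = 1) and the isotype libraries (IgG, n = 2, IgG2b at 10 mg/kg every 3 days) are both labelled control. BP (n = 2) received the anti-VEGF antibody B20 at 5 mg/kg with anti-PD-L1 at 10 mg/kg every 3 days. BPI (n = 1) received the same antibodies and daily oral IPI-145, an inhibitor of the PI3K delta and gamma subunits, at 10 mg/kg. CD40 (n = 1) received agonist antibody to CD40 at 100 µg in 2 doses, 5 days apart. The labels do not state whether its mice also had a dendritic cell vaccine, or which IgG library had the oral diluent. Libraries held 68997476 to 186793886 UMIs, of which 5626 to 10539 barcodes per library were kept.

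Conventional dendritic cells carry antigen to T cells. The type 1 cells (cDC1), which take up dead cells through the receptor Clec9a and bear the chemokine receptor Xcr1, are known for presenting such antigen to CD8 T cells. The type 2 cells (cDC2), marked in mice by the lectin Cd209a, are known mainly for priming CD4 T cells. On maturation either type raises Ccr7, the receptor that guides cells to lymph nodes, and Fscn1, an actin-bundling protein of dendrites. Flt3 is the receptor for their growth factor and Zbtb46 a transcription factor of the lineage. H2-Ab1, H2-Aa and Cd74 belong to MHC class II presentation. Fscn1 is not private to this lineage and is also made by glial and glioma cells.

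Most gated cells went against the label. Of the 531, 419 had 0 UMIs of Xcr1, Clec9a, Cd209a and Ccr7 and entered through Fscn1 alone, and are called Fscn1-only cells. The other 112 had a UMI of at least 1 of these 4 receptors and are called receptor-bearing cells. This split was chosen after the values were seen, so no test is given between them. Ptprc, the pan-leukocyte CD45 transcript, had 0 UMIs in 357 of the 419 Fscn1-only cells and was present in 96 of the 112 receptor-bearing cells. At least 3 UMIs of 7 tumour markers (Egfr, Olig2, Sox2, Cdkn2a, Ptprz1, Nes and Sparcl1) were found in 416 of the Fscn1-only cells and in 13 of the receptor-bearing cells. Arf and Ink4a, which the line lacks, are products of Cdkn2a, yet Cdkn2a had UMIs in 387 Fscn1-only cells, and which part of its transcript they came from was not tested. The 6 markers without it, a choice made after seeing the data, had at least 3 UMIs in 408 and 13 cells. The summed level of all 7 was 808 CPM in the former (CPM, UMIs of a gene over all UMIs of the summed cells, on the usual scale) and 223 CPM in the latter.

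The Fscn1-only cells were deep and poor in class II. Their median depth was 30168 UMIs against 9116.5 in receptor-bearing cells, and their median H2-Ab1 count was 5 UMIs against 31. H2-Ab1 stood at 301 CPM in them and at 4737 CPM in receptor-bearing cells, and was under 1000 CPM in 388 of 419 and 25 of 112. A lone Flt3 or Zbtb46 UMI met the lineage term in 306 of the 419. Flt3 was at 2.07 CPM and Zbtb46 at 40.2 CPM in Fscn1-only cells, against 209 CPM and 129 CPM in receptor-bearing cells. Cd86, a costimulatory ligand for T cells, was at 7.42 CPM against 414 CPM.

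**Figure D1:**
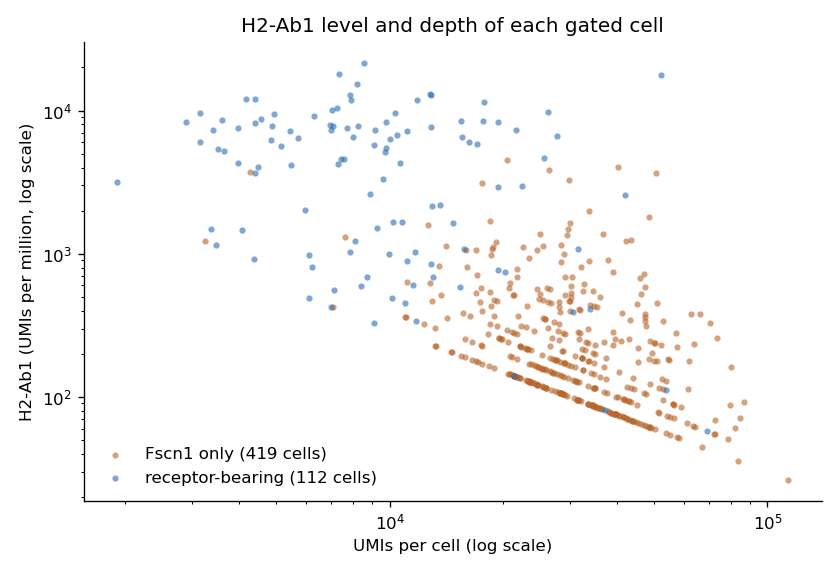
Each point is 1 gated cell, with its UMIs on the horizontal axis and its H2-Ab1 CPM on the vertical axis, both on log scales, coloured by route of entry. Fscn1-only cells gather at high depth along the lower edge that a few H2-Ab1 UMIs draw (median 5 UMIs), while most receptor-bearing cells lie above 1000 CPM.

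Fscn1-only cells sat in particular libraries. UT held 155 and BP replicate 1 held 249, CD40 held 11, BPI and IgG replicate 2 held 2 each, and IgG replicate 1 and BP replicate 2 held 0. Thus 404 of 419 (96.4%) came from UT and BP replicate 1. The same libraries had the most class II RNA outside cells: H2-Ab1 in barcodes of at most 50 UMIs was at 1084 CPM in UT and 1028 CPM in BP replicate 1, and at 12.4 to 269 CPM in the other 5. Among ungated cells without Ptprc, at least 3 H2-Ab1 UMIs were found in 16.3% of UT cells and 22.0% of BP replicate 1 cells, against 0.067% to 1.33% elsewhere. Fscn1 was not peculiar to gated cells: at least 2 UMIs stood in 36.1% of all ungated cells without Ptprc. The part of free RNA in the gate was not tested. In CD40 the 11 Fscn1-only cells had 3094 CPM of 6 endothelial markers (Pecam1, Cdh5, Cldn5, Kdr, Flt1 and Ly6c1), against 98.2 to 276 CPM in the Fscn1-only cells of other libraries.

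**Figure D2:**
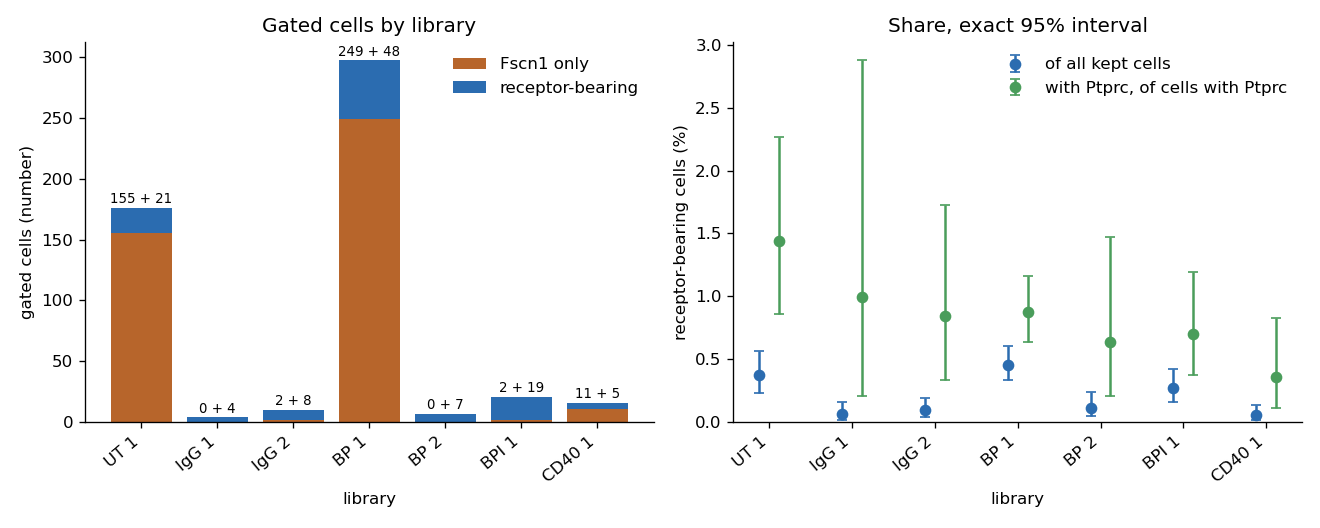
Left, gated cells in each library, stacked by route, with Fscn1-only and receptor-bearing numbers printed above each bar. Right, points give receptor-bearing cells as a percentage of kept cells and, for those with Ptprc, of kept cells with Ptprc, with exact 95% intervals that cover counting error only; gated cells were most numerous in BP 1 (249 + 48 cells) and UT (155 + 21 cells).

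The upstream sequences of the gene that admitted most members and of a class II gene are printed because the counts of these genes parted in the gated cells. They are the 250 bases before the RefSeq start site on build GRCm38.p6. Capitals mark the Y box core CTGATTGG of class II promoters and the cyclic AMP response element TGACGTCA, searched on both strands without overlap.
Fscn1, chr5:142960105-142960354, plus strand: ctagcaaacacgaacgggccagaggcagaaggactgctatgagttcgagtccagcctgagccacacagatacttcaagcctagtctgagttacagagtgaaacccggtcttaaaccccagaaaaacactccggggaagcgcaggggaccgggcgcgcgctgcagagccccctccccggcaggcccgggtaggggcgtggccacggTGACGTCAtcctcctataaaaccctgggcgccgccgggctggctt
H2-Aa, chr17:34287824-34288073, minus strand: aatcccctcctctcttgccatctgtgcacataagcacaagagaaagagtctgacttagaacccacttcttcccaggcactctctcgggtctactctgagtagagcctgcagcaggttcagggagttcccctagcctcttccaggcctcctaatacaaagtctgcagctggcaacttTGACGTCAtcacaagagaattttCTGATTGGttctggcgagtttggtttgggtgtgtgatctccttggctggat
The Y box core was in the H2-Aa window, 51 bases before the start site, and these letters were not in the Fscn1 window. Both windows held TGACGTCA. Of 32851 promoter windows of this length, 3.83% held the Y box core and 1.55% held TGACGTCA. A match of letters is a description and not a measured site.

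Receptor-bearing cells numbered 21 in UT, 4 in IgG replicate 1, 8 in IgG replicate 2, 48 in BP replicate 1, 7 in BP replicate 2, 19 in BPI and 5 in CD40. As a share of kept cells this was 0.373% in UT, 0.0639% and 0.0999% in IgG, 0.455% and 0.116% in BP, 0.270% in BPI and 0.0601% in CD40. Libraries differed widely in leukocytes, since cells with Ptprc were 4.83% (IgG replicate 1) to 48.9% (BP replicate 1) of kept cells. Over cells with Ptprc, receptor-bearing cells with Ptprc were 1.44% in UT (exact 95% interval 0.857% to 2.27%), 0.993% and 0.841% in IgG, 0.873% and 0.635% in BP, 0.700% in BPI, and 0.357% in CD40 (0.116% to 0.832%). On this denominator the library intervals of IgG and BP overlapped throughout, and UT and CD40 were the ends of the range. UT shared 0 to 4 barcodes of 1000 or more UMIs with each other library, and the other pairs shared 10 to 27.

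By its highest receptor count a receptor-bearing cell was cDC1 (Xcr1 and Clec9a, 42 cells), cDC2 (Cd209a, 30 cells) or Ccr7-bearing (38 cells), and 2 were tied. A single class was seen in 103 of the 112 cells. Cd209a and Ccr7 were together in 0 cells, Xcr1 or Clec9a was with Cd209a in 5 and with Ccr7 in 4, and Ccr7 was accompanied by Fscn1 in 31 of 39 cells. These genes are terms of the rule, so the counts describe its result, and no expected number was computed. As background, a UMI of Xcr1 or Clec9a was found in 1.18% of ungated cells with Ptprc and at least 5 C1q UMIs (median depth 10312 UMIs) and in 0.241% of ungated cells without Ptprc (14308 UMIs), while a Cd209a UMI was found in 0.0287% and 0.0201%. A Ccr7 UMI was found in 0.459% and 0.276% of these cells, and in 12.9% of ungated cells with Ptprc and at least 2 Cd3 UMIs (5333.5 UMIs), as T cells can express it, with 30.2% of the 53 in IgG replicate 2.

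**Figure D3:**
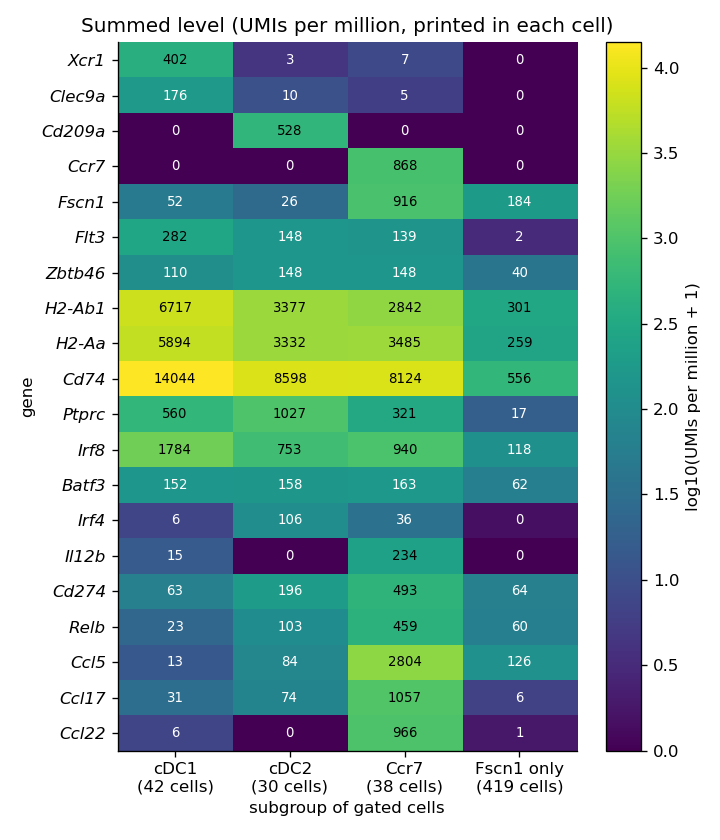
Summed CPM for 20 genes (rows) in the cDC1, cDC2 and Ccr7 subgroups of receptor-bearing cells and in Fscn1-only cells (columns), with the level printed and coloured on a log10 scale. The receptor of each subgroup is high there by construction, and class II genes are lowest in the Fscn1-only column (H2-Aa at 259 CPM).

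Receptor-bearing cDC1 numbered 7 in UT, 2 and 4 in IgG, 16 and 3 in BP, 7 in BPI and 3 in CD40. Beyond the genes of the rule they carried the regulators and effectors known for this type. Irf8, the transcription factor on which cDC1 depend, was at 1784 CPM and had a UMI in 42 of 42 cells, against 753 CPM in the cDC2 subgroup and 940 CPM in the Ccr7 subgroup. Over libraries it lay between 1026 CPM (CD40) and 2952 CPM (UT). Wdfy4, needed for cross-presentation, was at 1630.4 CPM in 39 of 42 cells, against 283 CPM and 50.2 CPM. Id2, a repressor of alternative lymphoid fates, was at 939.5 CPM against 16.1 CPM in cDC2 and 380.3 CPM in Ccr7 cells. The leading genes by ratio were Itgae (the CD103 integrin chain, 441 CPM), Ppt1, Ccser1, Plet1, Ffar4, Sept3, Naaa (1025 CPM), Qpct, Tlr3 (a sensor of double-stranded RNA, 182 CPM) and Asb2. Itgae, Ppt1, Ffar4, Naaa and Asb2 had UMIs in all 6 libraries with at least 3 such cells. Batf3, an Irf8 partner in cDC1, was at 152 CPM and did not stand apart from cDC2 (158 CPM) or Ccr7 cells (163 CPM).

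Receptor-bearing cDC2 numbered 3 in UT, 1 and 3 in IgG, 19 and 1 in BP, 3 in BPI and 0 in CD40, so that BP replicate 1 gave 19 of 30. Clec10a, a lectin of cDC2, was at 415 CPM in 27 of 30 cells, with 22.6 CPM in cDC1 and 9.57 CPM in Ccr7 cells. Irf4, the factor tied to cDC2, was at 106 CPM in 11 cells, all in BP replicate 1 (8), BPI (2) and IgG replicate 2 (1). Il1b was at 550.5 CPM in 12 of 30 cells. Ccr2, a receptor of blood-derived monocytes and of some cDC2, was at 319 CPM. Ccr7 cells, the lower of the other subgroups for Ccr2, had 33.5 CPM. By ratio to the higher of the other subgroups, none of Irf4, Il1b and Ccr2 was among the 10 leading genes. Besides Clec10a these held Cd209d (241 CPM, 14 cells), Ahnak (843 CPM, 29 cells) and Ccl9 (116 CPM, 9 cells). Cd209a and Cd209d belong to 1 family of like sequences, and their counts are uncertain to that extent. The remaining leaders Ly6c1, Ctla2a, Igfbp7, Ccl19, Cldn5 and Adgrl4 rested on single cells of BP replicate 1, which gave 98.9% to 100% of their UMIs. They include endothelial genes (Cldn5, Adgrl4), and the 6 endothelial markers summed to 1001 CPM in the cDC2 subgroup against 61.3 CPM in cDC1.

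Ccr7-bearing cells numbered 11 in UT, 1 and 1 in IgG, 12 and 3 in BP, 9 in BPI and 1 in CD40. They held the chemokines of mature dendritic cells. Ccl22, a ligand of Ccr4 on regulatory and other T cells, was at 966 CPM in 24 of 38 cells, with 6.46 CPM in cDC1 and 0 in cDC2. Ccl17, the other Ccr4 ligand, was at 1057 CPM but in 11 cells, and 1 cell of BP replicate 1 gave 31.0% of its UMIs. Ccl5 was at 2804 CPM in 27 cells, of which 1 IgG replicate 1 cell gave 24.6%. Cacnb3 (294 CPM, 29 cells), Mreg (220 CPM, 24 cells), Tmcc3 (466 CPM, 29 cells), Fabp5 (794 CPM, 28 cells) and AW112010 (737 CPM, 31 cells) also led and were found in each of the 4 libraries with at least 3 such cells. Gm15056 (763 CPM, 38.2% from 1 cell) and Slc7a2 (187 CPM, 60.3% from 1 cell) rested more on single cells.

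Signals to T cells were compared between the subgroups with libraries pooled and no test. Cd274, which encodes PD-L1, the target of an antibody in BP and BPI, was at 493 CPM in 31 of 38 cells, against 196 CPM in cDC2 and 63.0 CPM in cDC1. Relb, an NF-kappaB factor of maturation, was at 459 CPM against 103 CPM and 22.6 CPM. Cxcl16 was at 495 CPM in Ccr7 cells, 51.5 CPM in cDC2 and 111 CPM in cDC1. Cd86 was at 507, 409 and 365 CPM in the same order, and Cd83 at 423, 447.5 and 211 CPM. BP replicate 1 gave 19 of 30 cDC2, 16 of 42 cDC1 and 12 of 38 Ccr7 cells, and the part of this mix in the levels was not tested. Cd40, the target of the agonist, was at 254 CPM in Ccr7 cells, 225 CPM in cDC2 and 50.04 CPM in cDC1. Il12b, the shared chain of IL-12 and IL-23, had UMIs in 6 Ccr7 cells and 2 cDC1 and in 0 of 30 cDC2. Il15, which sustains T and natural killer cells, was at 74.2 CPM against 22.6 CPM in cDC1 and 22.5 CPM in cDC2. Pik3cd, a PI3K subunit hit by IPI-145, was at 243 CPM in cDC2, 78.6 CPM in cDC1 and 21.6 CPM in Ccr7 cells of BP replicate 1, but at 39.5, 55.0 and 82.7 CPM in those of UT, so the order differed between libraries.

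Siglech together with Ly6d or Ccr9, a pattern of plasmacytoid dendritic cells, was found in 17 of the 112 receptor-bearing cells, 12 of them in BP replicate 1, 3 in UT and 1 each in BP replicate 2 and CD40. By receptor 7 of these cells counted as cDC1, 6 as cDC2 (all in BP replicate 1, of its 19), 3 as Ccr7-bearing and 1 as tied. The 8 markers of the plasmacytoid dendritic list summed to between 199 CPM (IgG replicate 1) and 3871 CPM (CD40). Tcf4, 1 of the 8, was at 949 CPM over all receptor-bearing cells and at 1193 CPM in Fscn1-only cells. The monocyte markers summed to 1335 to 3501 CPM per library with 0 to 3 of 8 genes at 0. Those of the macrophage list summed to 66.4 CPM in IgG replicate 1 and 263 CPM over all libraries. T cell markers summed to 0 to 105 CPM and natural killer cell markers to 0 to 155 CPM. The rule left out cells with any Cd3d, Cd3e or Cd3g UMI and capped the C1qa, C1qb and C1qc UMIs. Low T cell and macrophage sums thus partly describe the rule and cannot be set beside the monocyte sums. The part of these other cell types in the results was not tested.

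The design allowed a comparison of BP with IgG over libraries, 2 against 2, for which the smallest p of a two-sided exact permutation test is 0.333. Gated cells were 2.82% and 0.116% of kept cells in BP and 0.0639% and 0.125% in IgG. The means were 1.47% ± 1.91 (SD, n = 2) and 0.0944% ± 0.0431 (SD, n = 2), the groups overlapped, and the exact permutation p was 0.667. Without BP replicate 1 the difference of 1.37 percentage points became 0.0221. Requiring the receptors alone, with Fscn1 left out of the sum, gave 0.389% and 0.116% in BP against 0.0639% and 0.0999% in IgG, and a difference of 0.171 points, an alternative added after seeing the data. In UT, BPI and CD40 the gated cells were 3.13%, 0.299% and 0.192% of kept cells.

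When Fscn1 counted toward a migratory class, as the rule has it, that class took 461 of 531 gated cells, and 422 of these had no Ccr7. Its leading genes were Gfap (574 CPM) and Aldoc (477 CPM), both astrocytic, with Mt2 (464 CPM), Cd63 (1105 CPM), Lrrc7, Rgs20, Igfbp7, Mdga2, Id3 and Nav3. Gfap and Aldoc go against the name migratory dendritic cell. Cd63 is itself a member of the migratory maturation list, and Igfbp7 had UMIs in only 57 of the 461 cells. The class was 88.9% and 42.9% of gated cells in BP and 25.0% and 30.0% in IgG, with an exact permutation p of 0.333, and the groups did not overlap. cDC2 were 6.06% and 14.3% in BP, and 1 of 4 and 3 of 10 cells in IgG (exact permutation p = 0.333, no overlap), and cDC1 were 4.71% and 42.9% in BP, and 2 of 4 and 4 of 10 cells in IgG (exact permutation p = 0.667, overlapping). After every cell was thinned to 2000 UMIs, 1 to 9 gated cells were left in each IgG and BP library and all 3 differences changed sign. All 3 classes were read from genes that the rule selects on. Their shares and p-values thus describe the result of the rule and are no support for a shift in subtypes.

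Among the receptor-bearing cells the subgroup shares were as follows, with no test. cDC1 were 33.3% and 42.9% in BP and 2 of 4 and 4 of 8 cells in IgG, cDC2 were 39.6% and 14.3% in BP and 25.0% and 37.5% in IgG, and Ccr7 cells were 25.0% and 42.9% in BP and 25.0% and 12.5% in IgG. UT had the largest Ccr7 share, 52.4% of 21 cells (exact 95% interval 29.8% to 74.3%), followed by BPI with 47.4% of 19 (24.4% to 71.1%). No cDC2 was seen among 5 receptor-bearing cells in CD40, which allows a share of up to 52.2% (exact 95% interval).

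Gene levels were compared on counts of gated cells summed per library, with the edgeR quasi-likelihood test and Benjamini-Hochberg adjustment over 5771 genes. IgG replicate 1, with 4 gated cells, fell under the minimum of 5 cells, so IgG was IgG replicate 2 alone (10 cells). The fit held 5 libraries and 1 residual degree of freedom, and the lone libraries were assumed to vary like BP. It also borrowed spread across genes, with a median of 129 prior degrees of freedom. Its p-values thus rest mainly on spread shared across genes and do not measure the spread of a gene between libraries. BP differed from IgG in 1 gene (0.0173% of genes tested, with 0.728% at an unadjusted p under 0.05). BPI differed from IgG in 4 genes (0.0693%, with 1.68% unadjusted), of which 3 were higher (0.052%). CD40 differed from IgG in 0 (74 genes, or 1.28%, unadjusted, and 0 by DESeq2), and BPI from BP in 1 (0.0173%, with 1.26% unadjusted). DESeq2 called 0 genes in each. With IgG replicate 1 kept, at a minimum of 4 cells chosen after seeing the data, edgeR called 0 genes in all 4 contrasts. The comparisons with IgG share the control library. The summed cells were unlike mixes, since Fscn1-only cells were 249 of 297 in BP replicate 1, 0 of 7 in BP replicate 2, 11 of 16 in CD40, 2 of 21 in BPI and 2 of 10 in IgG replicate 2. The part of this mix in the gene differences and list medians was not tested. In simulated counts with the spread of these libraries, 200 of the 5771 genes, all above the median level, were raised 4-fold in BP. Of these, 0% passed in BP against IgG. The spread came from the BP libraries, whose mixes were unlike.

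Each call rested on few cells or on 1 control library. Csn2, a milk casein gene, was lower in BP (edgeR log2 difference -10.70, SE 2.02, adjusted p = 0.00283), and all 71 of its UMIs in IgG replicate 2 came from 1 Fscn1-only cell. Csn2 had 2 UMIs in BP replicate 1 and 0 in the other libraries. Gfap, the astrocyte filament, was called lower in BPI (edgeR log2 difference -13.87), where it had 0 UMIs. In IgG replicate 2, 2 Fscn1-only cells held its 144 UMIs. Against a floor of 3 counts in BPI it was at least 42.2-fold higher in IgG replicate 2. Sct, which encodes secretin, was higher in BPI than in BP (8.26, adjusted p = 0.0363). It was at 421 CPM in BPI (8 of 21 cells), 1.68 CPM in BP replicate 1 and 0 in BP replicate 2, but also at 565 CPM in IgG replicate 1, where 1 cell held all 17 UMIs. Over receptor-bearing cells alone Sct was at 554 CPM in BPI, 21.3 CPM in BP replicate 1, whose 15 UMIs all lay in 6 such cells, and 349 CPM in UT.

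Cxcl9 and Cxcl10, ligands of Cxcr3 that draw activated T cells, and Ly6a, an interferon-inducible surface protein, were called higher in BPI than in IgG (adjusted p = 0.00201 for each by edgeR). Among gated cells Cxcl10 was at 2017 CPM in BPI and 0 in IgG replicate 2, Cxcl9 at 1883 CPM and 0, and Ly6a at 1423 CPM and 0. Against a floor of 3 counts in IgG replicate 2 these were at least 115-fold, 107-fold and 80.8-fold higher. Over receptor-bearing cells Ly6a was higher in UT (2097 CPM, 19 of 21 cells) than in BPI (1344 CPM, 17 of 19 cells). There it was at 1078 CPM and 685 CPM in BP, 783 CPM in CD40 and 0 in IgG replicate 2. IgG replicate 1, outside the fit, had Cxcl9 at 930 CPM, Cxcl10 at 233 CPM and Ly6a at 598 CPM, each in 2 of 4 cells, and with it in the fit each adjusted p was 1. Of these 4 cells 3 were among the highest Scrublet scores (a score of likeness to simulated doublets), and the 1 other cell had 6 Cxcl10 UMIs and 0 of Cxcl9 and Ly6a. Of all gated cells 14.1% had such scores, against 4.50% to 8.44% of kept cells, the share set by the assumed rate. Gene position on GRCm38 placed Cxcl9 (chr5:92321347-92328079) and Cxcl10 (chr5:92346638-92348889) side by side on the minus strand. None of the 16 gene lists had a called member in BP or CD40 against IgG or in BPI against BP. In BPI against IgG, 2 of 8 tested chemokines and 2 of 23 tested interferon-response genes were higher, in each case Cxcl9 and Cxcl10, against 0.052% of all genes tested, and the other 14 lists had 0.

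The interferon-response genes differed between libraries, and the value of IgG replicate 1 rests on 4 cells, 3 of them among the highest Scrublet scores. In receptor-bearing cells the 24 measured genes of the interferon response list summed to 366 CPM in IgG replicate 2 and 6942 CPM in IgG replicate 1, with 13 and 4 genes at 0. The sum was 9323 CPM in UT, 6981 CPM and 3515 CPM in BP, 14349 CPM in BPI and 1582 CPM in CD40. Isg15, a ubiquitin-like interferon product, was at 9.14 CPM in IgG replicate 2 (1 of 8 cells) and 2358 CPM in IgG replicate 1 (3 of 4 cells), 1794 CPM in UT, 706 CPM and 626 CPM in BP, 3181 CPM in BPI and 331 CPM in CD40. By the sum and by Isg15, BPI was highest and IgG replicate 2 lowest. IgG replicate 1 lay between the BP libraries by the sum and above both by Isg15, so the treated libraries were not on 1 side of the controls. Without the highest scores IgG replicate 1 kept 1 cell, with an interferon sum of 2617 CPM and 0 Isg15 UMIs, below the sums of both BP libraries (6374 CPM and 3515 CPM), while UT, also a control, stayed above them at 7825 CPM. Relative to IgG replicate 2, the median log2 ratio in gated cells of BPI over the 23 tested genes was 2.92 with low counts set at the floor and 3.03 in the fit, where the median over all genes was -0.02.

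**Figure D4:**
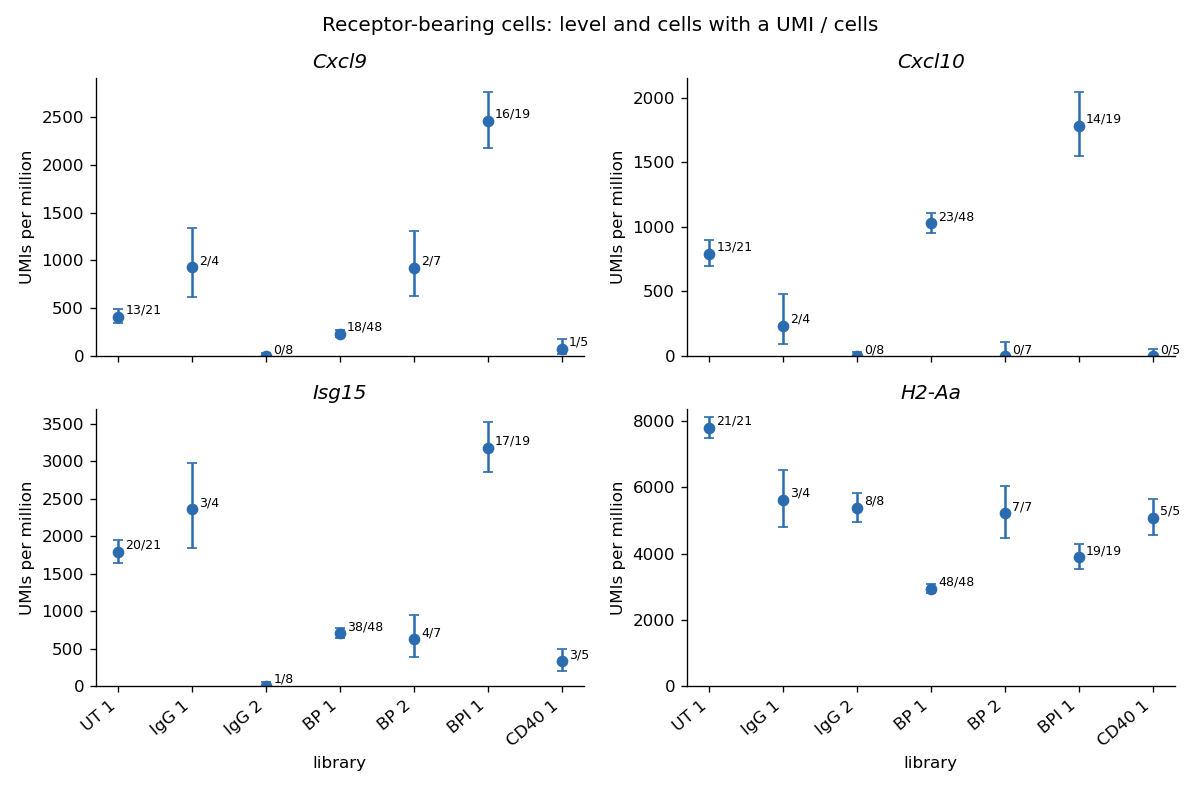
Summed CPM in receptor-bearing cells of each library for Cxcl9, Cxcl10, Isg15 and H2-Aa, with exact Poisson 95% intervals (counting error only) and, beside each point, cells with a UMI over cells. The interferon-inducible genes are highest in BPI and at or near 0 in IgG 2. H2-Aa, in cells selected on H2-Ab1, lies between 2945 and 7783 CPM in all libraries.

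Among libraries, Cxcl9 and Cxcl10 in receptor-bearing cells were highest in BPI and at 0 in IgG replicate 2. Cxcl10 was at 0 also in BP replicate 2 and CD40. Cxcl10 was not confined to these cells. Over all gated cells of UT, mostly Fscn1-only, it was at 1194 CPM in 165 of 176 cells, against 791 CPM in 13 of 21 receptor-bearing cells. BP replicate 1 had 586 CPM over all gated cells and 1029 CPM in receptor-bearing cells. In BPI, receptor-bearing cells held 203 of the 302 Cxcl10 UMIs of gated cells. At least 1 UMI of Cxcl9 or Cxcl10 was found in 18 of 19 receptor-bearing cells in BPI (94.7%, exact 95% interval 74.0% to 99.9%), 14 of 21 in UT, 29 of 48 and 2 of 7 in BP, 3 of 4 and 0 of 8 in IgG and 1 of 5 in CD40. Cxcl9 stood at 2460 CPM in BPI, 930 CPM in IgG replicate 1, 923 CPM in BP replicate 2, 413 CPM in UT, 233 CPM in BP replicate 1, 75.3 CPM in CD40 and 0 in IgG replicate 2. The values of IgG replicate 1 and BP replicate 2 came almost wholly from 1 cell each (96.4% and 96.8% of UMIs), as against 17.5% from the highest cell in BPI. Irf7 was at 0 in IgG replicate 2, 271 CPM in CD40, and 387 to 1452 CPM in the rest.

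Class II genes varied less. Every member had been selected for at least 3 H2-Ab1 UMIs, so cells low in class II were left out of each library. The part of the rule in this range was not tested. In receptor-bearing cells Cd74, the class II invariant chain, was at 18355 CPM in UT, 14847 CPM and 9727 CPM in IgG, 7752 CPM and 13197 CPM in BP, 10993 CPM in BPI and 9219 CPM in CD40, so IgG and BP overlapped. H2-Aa was at 7783 CPM in UT, 5613 CPM and 5385 CPM in IgG, 2945 CPM and 5213 CPM in BP, 3893 CPM in BPI and 5077 CPM in CD40. Both BP libraries were below both IgG libraries for H2-Aa, and the BP libraries lay farther from each other than BP replicate 2 did from IgG. The log2 difference over gated cells was -0.59 (SE 0.73), which did not pass the edgeR test. Ciita, the class II transactivator, was highest in CD40 (361.5 CPM). Its 66.4 CPM in IgG replicate 1 lay under the floor of 3 counts there (99.6 CPM). Of 11 class II genes, 10 were tested and 0 passed in any contrast, with median log2 differences from IgG of -0.73 in BP, -0.04 in BPI and -1.24 in CD40, against 0.01, -0.02 and 0.02 over all genes.

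In receptor-bearing cells the 17 genes of the MHC class I and cross-presentation list summed to 7561 CPM in IgG replicate 2 and 9174 CPM in CD40, against 13137 to 23389 CPM in the other 5 libraries. B2m, the class I light chain, was at 1298 CPM and 1943 CPM, against 2325 to 6179.5 CPM elsewhere. H2-K1 was at 731 CPM and 1416 CPM in these libraries and 1924 to 3324 CPM elsewhere, and H2-D1 at 1938 CPM and 2034 CPM against 3873 to 7532 CPM. H2-K1 and H2-D1 have near-identical stretches and their counts could be split between them. Psmb8, a subunit of the immunoproteasome, was at 695 CPM and 708 CPM, against 964 to 2039 CPM. Of the 17 genes of the class I list, 16 were tested and 0 passed in any contrast.

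Costimulatory genes and Cd274 differed between libraries, and none passed the test in BP against IgG. Cd86 was at 523 CPM in UT, 598 CPM and 448 CPM in IgG, 292 CPM and 626 CPM in BP, 869.9 CPM in BPI and 181 CPM in CD40. Cd40 was at 252 CPM in UT, 99.6 CPM and 36.6 CPM in IgG, 129 CPM and 179 CPM in BP, 211 CPM in BPI and 45.2 CPM in CD40. Both BP libraries were above both IgG libraries for Cd40, but in the fit over gated cells the log2 difference was 1.21 (SE 1.77, edgeR adjusted p = 0.9999). Cd80 was lowest in BP replicate 1 (63.8 CPM) and highest in IgG replicate 1 (199 CPM). Cd274 was at 271 CPM in UT, 99.6 CPM and 45.7 CPM in IgG, 257 CPM and 179 CPM in BP, 237 CPM in BPI and 30.1 CPM in CD40. It too lay higher in both BP libraries than in both IgG libraries, and its log2 difference of 1.57 (SE 1.53) did not pass the edgeR test.

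In receptor-bearing cells cytokine and Ccr4-ligand levels rested on few cells. Il12b was at 894 CPM in BP replicate 2 and 0 in BP replicate 1, at 399 CPM in IgG replicate 1 and 0 in IgG replicate 2, and at 158 CPM in UT, 96.7 CPM in BPI and 75.3 CPM in CD40, in 8 cells altogether. Ccl22 was at 343 CPM and 1459.7 CPM in BP, 199 CPM and 36.6 CPM in IgG, 297 CPM in UT, 132 CPM in BPI and 0 in CD40. Ccl17 was at 419 CPM in UT, 408 CPM and 1162 CPM in BP, 0 (floor of 3 counts, 99.6 CPM) and 155 CPM in IgG, 87.9 CPM in BPI and 15.1 CPM in CD40. In BP replicate 2, 1 cell gave 87.8% of the Ccl22 and 100% of the Ccl17 UMIs. Over gated cells, where neither passed the edgeR test, the groups overlapped, with Ccl22 in BP replicate 1 at 28.2 CPM and Ccl17 at 39.7 CPM, against up to 199 CPM and 99.7 CPM in IgG. Ccl5 was at 9566 CPM in IgG replicate 1, where 1 of 4 cells had it, and at 30.1 CPM in CD40. Sirpa, a cDC2 surface protein, was at 137.5 CPM in BP replicate 1 and at 17.6 to 89.4 CPM elsewhere. Pik3cd was at 113 CPM and 0 in BP and 17.6 CPM in BPI, and Pik3cg at 28.4, 29.8 and 17.6 CPM. In BPI and BP replicate 2 the levels of these subunits, which IPI-145 binds, lay under the floor of 3 counts (26.4 CPM and 89.4 CPM).

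Cells just inside and just outside each term of the rule were counted. With the other terms met, 334 gated cells had a single Flt3 or Zbtb46 UMI, of which 16.8% had Ptprc, and 1007 cells with 0 such UMIs lay just outside, of which 15.4% had Ptprc. At 3 or 4 H2-Ab1 UMIs there were 197 gated cells (15.7% with Ptprc), and at 1 or 2 UMIs 581 cells lay outside (18.4%). At a marker sum of 2 there were 116 gated cells (35.3% with Ptprc), and at 1 there were 89 cells outside (43.8%). The C1q limit had 55 gated cells at 3 or 4 UMIs (23.6%) and 11 outside at 5 or 6 (27.3%). With 1 Cd79a UMI, 30 cells lay outside (13.3%), and with 1 Cd3 UMI 24 (29.2%), against 29.8% with Ptprc among the 531 gated cells.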

How the data were processed

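Single-cell RNA sequencing (10x Genomics 3′ kit) was analysed in 7 libraries. The values the authors deposited are raw UMI counts per gene and barcode for all barcodes, which the file headers credit to Cell Ranger 4, while the submitters' processing notes name Cell Ranger 7.0.1 and mm10. Genes were matched by symbol (5 of 307 list genes were not found), with positions from GENCODE (GRCm38). Members, gene lists and tests were chosen with earlier results of these data known. Gated cells were found on raw counts as described above, in Python 3.11.15 with scipy 1.17.1. Doublets stayed in, and an alternative left out the highest Scrublet scores (scanpy 1.11.5), 4.50% to 8.44% of a library. Levels (CPM) were computed here from summed UMIs, with exact 95% Poisson or Clopper-Pearson intervals, which cover counting error only. Shares were compared with a two-sided exact permutation test. Summed counts were tested with edgeR 4.0.16 (TMM, filterByExpr, quasi-likelihood, adjusted p under 0.05), with DESeq2 1.42.0 as an alternative. The SE of a log2 difference was taken as its absolute value over the square root of the edgeR F statistic. The scripts were tested on simulated data.

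Named genes were, per contrast, up to 10 rises and 10 falls with an adjusted p under 0.05, an average log2 CPM of at least 5 and no overlap between groups, the gate genes, 20 genes fixed for their roles, the 4 highest genes of each of 16 lists and the 10 leading genes of each subgroup by ratio of (CPM + 20) to the higher of the others. Only some list genes are printed, and 1 gene of the rule is not reported here. Irf7, Relb and Tcf4 and the single markers of other cell types fall outside this rule and were picked with their values in view. The separation of Fscn1-only from receptor-bearing cells was made after the data were seen.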

Additional observations from a re-analysis of the deposited data

Results flagged for a closer look

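The UT library entered none of the main comparisons. It is 1 library and was assumed to be of a different library generation, which the sample titles do not name. It listed 713553 barcodes, against 1487060 to 2310016 in the others. Its shares of kept cells stood above those of both IgG libraries. The part of any difference in library generation in this was not tested. Gated cells were 3.13% of its kept cells, against 0.0639% and 0.125% in IgG. Fscn1-only cells were 2.76% of its kept cells, against 0 of 6257 and 0.0250% in IgG. Receptor-bearing cells were 0.373%, against 0.0639% and 0.0999%. Over cells with Ptprc the shares were 1.44% against 0.993% and 0.841%, with overlapping exact 95% intervals. No test was made of UT, which is 1 library.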

How the results depend on the processing

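The differences between BP and IgG in subgroup shares changed sign after thinning to 2000 UMIs: cDC1 22.2, cDC2 11.1 and migratory -33.3 percentage points (reported -21.2, -17.3 and 38.4). With at least 10 H2-Ab1 UMIs the cDC2 difference was 4.57. The gated share difference (reported 1.37) was 0.0424 thinned, 0.404 with at least 10 H2-Ab1 UMIs, 3.06 with at least 1, 0.4999 with no C1q UMI, 0.321 over cells with Ptprc, 0.425 with Ptprc required, 0.171 with Fscn1 left out and 0.362 with UT pooled with IgG. Gated shares of BP and IgG did not overlap when thinned, without the highest Scrublet scores, with at least 1 H2-Ab1 UMI or with Fscn1 left out. They overlapped in the other settings that kept all IgG and BP libraries. Without the highest Scrublet scores cDC1 was -0.83 and cDC2 -52.0. With UT pooled, cDC1, cDC2 and migratory were -7.54, -8.73 and 16.1, with only clear subtypes -8.71, -7.83 and 50.4, and with Fscn1 left out -10.3, -2.16 and 11.2. Leaving out 1 library at a time gave 0.0221 to 2.72 points for the gated share, -40.3 to -2.14 for cDC1, -21.4 to -13.2 for cDC2 and 15.4 to 61.4 for migratory. The cause was not tested. Genes called, in the order BP, BPI and CD40 against IgG and BPI against BP (reported 1, 4, 0 and 1), were 13, 4, 3 and 4 with all 20390 genes, 4, 4, 0 and 0 with library totals, 6, 10, 4 and 1 without the highest Scrublet scores, 1, 6, 2 and 1 with no C1q UMI, 4, 4, 0 and 1 with UT as its own group, 0, 0, 7 and 1 with UT pooled with IgG, and 0 in each with DESeq2 or with IgG replicate 1 kept. Leaving out IgG replicate 1 repeats the reported fit, which did not hold it (1, 4, 0 and 1). Leaving out IgG replicate 2 gave 2 for BPI against BP, and with the minimum also lowered to 4 cells, so that IgG replicate 1 took its place, 1, 0, 2 and 1. IgG and BP alone gave 2, or 0 with IgG replicate 1 kept (11 genes unadjusted). With the replicate block this was 0 (2 unadjusted), and with the crossed pairing 0 (103 unadjusted). The correlation of same-numbered libraries was -0.538 over 2129 genes. With 2 libraries in each group and unlike mixes of cells, it cannot tell whether the replicate numbers were paired. Without a BP library no residual degrees of freedom were left, and without IgG replicate 2 at the minimum of 5 cells the contrasts with IgG could not be fitted. The named calls held in 6 of 9 alternatives for Csn2, 5 of 9 for Cxcl9, Cxcl10, Ly6a and Gfap, and 7 of 10 for Sct, not counting the omission of IgG replicate 1. Calls against IgG held only in settings with IgG replicate 2 as the sole control. With UT pooled, with IgG replicate 1 kept or by DESeq2, none of them held. With 4 to 21 gated cells in 5 of the libraries, the levels there rest on few cells.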
